A study of Mus musculus with 75 samples.

Results

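The 40 genes described here are germline and meiosis genes of the mouse, among them Stra8, a gene switched on by retinoic acid (RA) at the start of meiosis. They were chosen by symbol from a list of meiotic entry regulators, meiotic cohesins, chromosome axis and synaptonemal complex genes, recombination genes, piRNA pathway genes and other testis-enriched genes. All 40 were found among the 52535 genes of the knockout and overexpression count tables and among the 52636 genes of the enhancer table. RNA was sequenced in 23 libraries of E14 mouse embryonic stem cells (ESCs), a line derived from blastocysts, and every group was taken out of LIF and the MEK and GSK inhibitors and given 2 μM RA for 24 h. The receptor knockout table held wild type (WT-RARX), Rarα-KO, Rxrα-KO and the double knockout RARX-DKO, with 2 libraries each. The overexpression table held V-OE (taken from its label as the vector control), Rarα-OE and Rxrα-OE, with 2 libraries each. The enhancer table held WT-Cyp26 (wild type) and deletions of the Cyp26 enhancers E1 (Cyp26-E1-KO) and E2 (Cyp26-E2-KO), with 3 libraries each. The labels do not say how many clones stand behind a line or what drives the overexpressed receptors. RNA from untreated cells was not analysed here, so the values compare RA-treated cells only.

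RARα and RXRα are nuclear receptors that bind DNA as a pair and switch genes on when RA binds, while the CYP26 enzymes break RA down. In the embryonic gonad, RA induces Stra8 and Rec8 and germ cells then enter meiosis. There, cohesins hold sister chromatids together and the synaptonemal complex holds homologous chromosomes together, while programmed breaks are repaired by recombination. In ESCs many of these genes are kept low by repressors such as the E2F6- and MGA-containing Polycomb complex and by DNA methylation. The piRNA pathway silences transposons in germ cells.

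Library totals ran from 7408691 to 13052102 counts in the knockout table, from 7835519 to 11453063 in the overexpression table and from 28397794 to 33601996 in the enhancer table. Rara averaged 104 CPM (counts per 1000000 of the scaled library total) in WT-RARX against 4.86 in Rarα-KO and 6.05 in RARX-DKO, and Rxra averaged 42.1 against 17.2 in Rxrα-KO and 20.6 in RARX-DKO. The fall of Rxra in RARX-DKO missed the threshold (edgeR adjusted p = 0.0654), with libraries at 13.6 and 27.6 CPM. Rara was 108 CPM in Rarα-OE against 52.0 in V-OE, and Rxra was 203 CPM in Rxrα-OE against 44.3. Cyp26a1 fell from 377 to 49.5 CPM in Cyp26-E1-KO and was 380.3 CPM in Cyp26-E2-KO. The enhancer columns carry letter codes that were matched to the deletions through codes used elsewhere in the series, so the naming of those 2 groups is less sure than that of the others. Replicates of the knockout table differed by 7.54 to 13.8 times the variance of counting alone, whereas Rarα-KO replicate 2 and RARX-DKO replicate 1 differed by 4.90 times, less than any replicate pair. In the overexpression table the figure was 1.90 to 2.28, and in the enhancer table Cyp26-E1-KO replicate 2 stood apart from its replicates at 43.8 and 50.2 times.

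Markers of later germ cells summed to 8.57 CPM or less, and those of primordial germ cells, which hold 2 of the 40 genes, to 69.7 CPM or more. The 8 spermatid markers summed to between 0 and 1.92 CPM in every library, with Prm2 at 0 in the knockout and overexpression tables and Tnp1 at 0 in the overexpression and enhancer tables. The 7 oocyte markers summed to 1.14 to 8.57 CPM, with Oosp1 and Nlrp5 at 0 in all 3 tables. The 7 markers of postmigratory primordial germ cells, which include Dazl and Ddx4 of the 40 genes, summed to 105 to 175 CPM in the knockout table, 69.7 to 120.4 in the overexpression table and 92.1 to 106 in the enhancer table. Dazl and Ddx4 made up much of these sums. In WT-RARX, where the 7 summed to 126 to 153 CPM, Dazl was 85.4 and 60.0 and Ddx4 21.7 and 21.3 CPM. In V-OE, where they summed to 69.7 to 71.7 CPM, Dazl was 16.7 and 16.1 and Ddx4 15.2 and 20.9 CPM. The 5 pluripotency markers summed to 1147 CPM or more in every library. In such bulk samples, fewer cells of a type and less RNA per cell cannot be told apart.

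The 40 genes differed widely in level in the control cells. Per kilobase of exon, Stra8 was the highest in WT-RARX (231 CPM per kb) and in V-OE (190 CPM per kb), ahead of Rpl10l, a retrocopy of the ribosomal protein gene Rpl10 (223 and 160 CPM per kb). In WT-Cyp26 the order was reversed, with Rpl10l at 163 and Stra8 at 117 CPM per kb. Tuba3a, a testis α-tubulin, and Aurkc, the meiotic Aurora kinase, came next in all 3 control groups, Tuba3a at 21.0 to 51.2 and Aurkc at 18.8 to 58.2 CPM per kb. The fifth in WT-RARX was Sohlh2, a germ cell transcription factor, at 35.5 CPM per kb, and in V-OE and WT-Cyp26 it was Syce2, of the synaptonemal complex central element, at 21.5 and 15.7 CPM per kb. Among the lowest were Rnf212, a crossover factor (0.100 to 0.182 CPM per kb), Asz1, a piRNA factor (0.047 to 0.203), and Spo11, the enzyme that makes the meiotic breaks (0.012 to 0.026). Spo11 and Rnf212 stayed under the low-count filter in all 3 tables and Asz1 in the overexpression and enhancer tables, so they were not tested there, and 38, 37 and 37 of the 40 genes were tested. Reads of Rpl10l and Tuba3a are uncertain because near-identical copies exist, and 660 bp of the exons of Sycp3 and 468 bp of those of Zcwpw1 overlap a gene on the other strand, as do 125 bp of Msh4 and 75 bp of Tuba3a, with the strand setting of the counting not given in the sources used here.

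Stra8 lies on chromosome 6 from 34920163 to 34939344 on the plus strand (mm10, GENCODE). The promoters of Stra8 and of the 3 genes called in most comparisons with a control (Smc1b, Zcwpw1 and Aurkc, below) are shown because RA receptors bind repeats of the motif AGGTCA. RefSeq windows (GRCm38.p6), cut to the 250 bases before the annotated start, were matched for 36 of the 40 genes. They lie at chr6:34920698-34920947 (plus strand, Stra8), chr7:6995135-6995384 (plus strand, Aurkc), chr15:85131958-85132207 (minus strand, Smc1b) and chr5:137787552-137787801 (plus strand, Zcwpw1) and are printed 5′ to 3′. Capitals mark any of 3 motifs on either strand: the receptor motif, the E-box CACGTG or the E2F-type site GCGGGAA.
Stra8: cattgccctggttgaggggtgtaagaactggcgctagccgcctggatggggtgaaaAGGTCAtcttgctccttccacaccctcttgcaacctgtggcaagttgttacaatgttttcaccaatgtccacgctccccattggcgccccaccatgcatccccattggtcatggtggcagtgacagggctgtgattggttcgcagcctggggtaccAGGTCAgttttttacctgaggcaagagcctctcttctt
Aurkc: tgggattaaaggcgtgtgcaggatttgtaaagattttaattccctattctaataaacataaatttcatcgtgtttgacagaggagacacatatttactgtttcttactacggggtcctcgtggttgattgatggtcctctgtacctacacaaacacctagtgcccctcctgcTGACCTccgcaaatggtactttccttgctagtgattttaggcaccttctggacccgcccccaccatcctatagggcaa
Smc1b: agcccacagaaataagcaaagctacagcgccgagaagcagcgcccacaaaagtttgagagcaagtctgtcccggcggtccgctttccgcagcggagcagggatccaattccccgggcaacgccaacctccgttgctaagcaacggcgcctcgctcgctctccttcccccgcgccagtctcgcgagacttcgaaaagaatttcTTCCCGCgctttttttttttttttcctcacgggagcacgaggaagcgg
Zcwpw1: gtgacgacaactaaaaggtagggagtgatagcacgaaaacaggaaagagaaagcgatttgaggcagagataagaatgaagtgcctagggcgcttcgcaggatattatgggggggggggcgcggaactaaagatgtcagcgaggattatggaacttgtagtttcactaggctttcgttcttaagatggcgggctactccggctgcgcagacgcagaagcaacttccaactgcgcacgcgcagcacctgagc
The Stra8 window held AGGTCA at 194 and at 38 bases before the RefSeq start, which lies 785 bp from the GENCODE gene start. Aurkc held it once on the reverse strand, Smc1b held a GCGGGAA on the reverse strand, and Zcwpw1 held none of the 3 words. Across the matched genes, AGGTCA occurred in 6 of 36 windows (16.7%) against 13.8% of 27025 genes. CACGTG occurred in 13 of 36 (36.1%) against 6.05%, and GCGGGAA in 11 of 36 (30.6%) against 3.84%. The windows of the 36 genes were also richer in CG dinucleotides, with a median of 14 against 6, and the E-box and E2F-type motifs each contain one, so these shares are given as a description only.

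In the receptor knockouts, Stra8 was 419 and 412 CPM in the WT-RARX libraries, 276 and 517 in Rarα-KO, 135 and 223 in Rxrα-KO, and 335 and 221 in RARX-DKO. The Rarα-KO libraries lay on either side of the wild type, whereas all Rxrα-KO and RARX-DKO libraries lay below it. No knockout passed the test: the log2 fold change was -0.07 ± 0.35 (SE) in Rarα-KO, -1.22 ± 0.36 in Rxrα-KO and -0.58 ± 0.35 in RARX-DKO (edgeR quasi-likelihood test, Benjamini-Hochberg adjusted p = 0.968, 0.148 and 0.533). With overexpression, Stra8 moved in opposite directions. It was 353 and 331 CPM in V-OE, 283 and 279 in Rarα-OE, and 517 and 530 in Rxrα-OE, with no overlap between groups. Its level fell in Rarα-OE (log2 fold change -0.28 ± 0.04, adjusted p = 7.89e-07), rose in Rxrα-OE (0.62 ± 0.04, adjusted p = 1.12e-18), and differed between the 2 lines directly (0.90 ± 0.04, adjusted p = 5.66e-25). In the enhancer lines, Stra8 was 209, 216 and 210 CPM in WT-Cyp26, 154, 95.5 and 147 in Cyp26-E1-KO, and 256, 248 and 253 in Cyp26-E2-KO. It fell in Cyp26-E1-KO (log2 fold change -0.68 ± 0.14, adjusted p = 0.00445). All 3 Cyp26-E2-KO libraries lay above the wild type, but the difference missed the threshold (0.25 ± 0.14, adjusted p = 0.25), and Cyp26-E2-KO exceeded Cyp26-E1-KO 1.91-fold (adjusted p = 0.00374). The calls in the overexpression and enhancer tables held when any 1 library was left out.

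**Figure D1:**
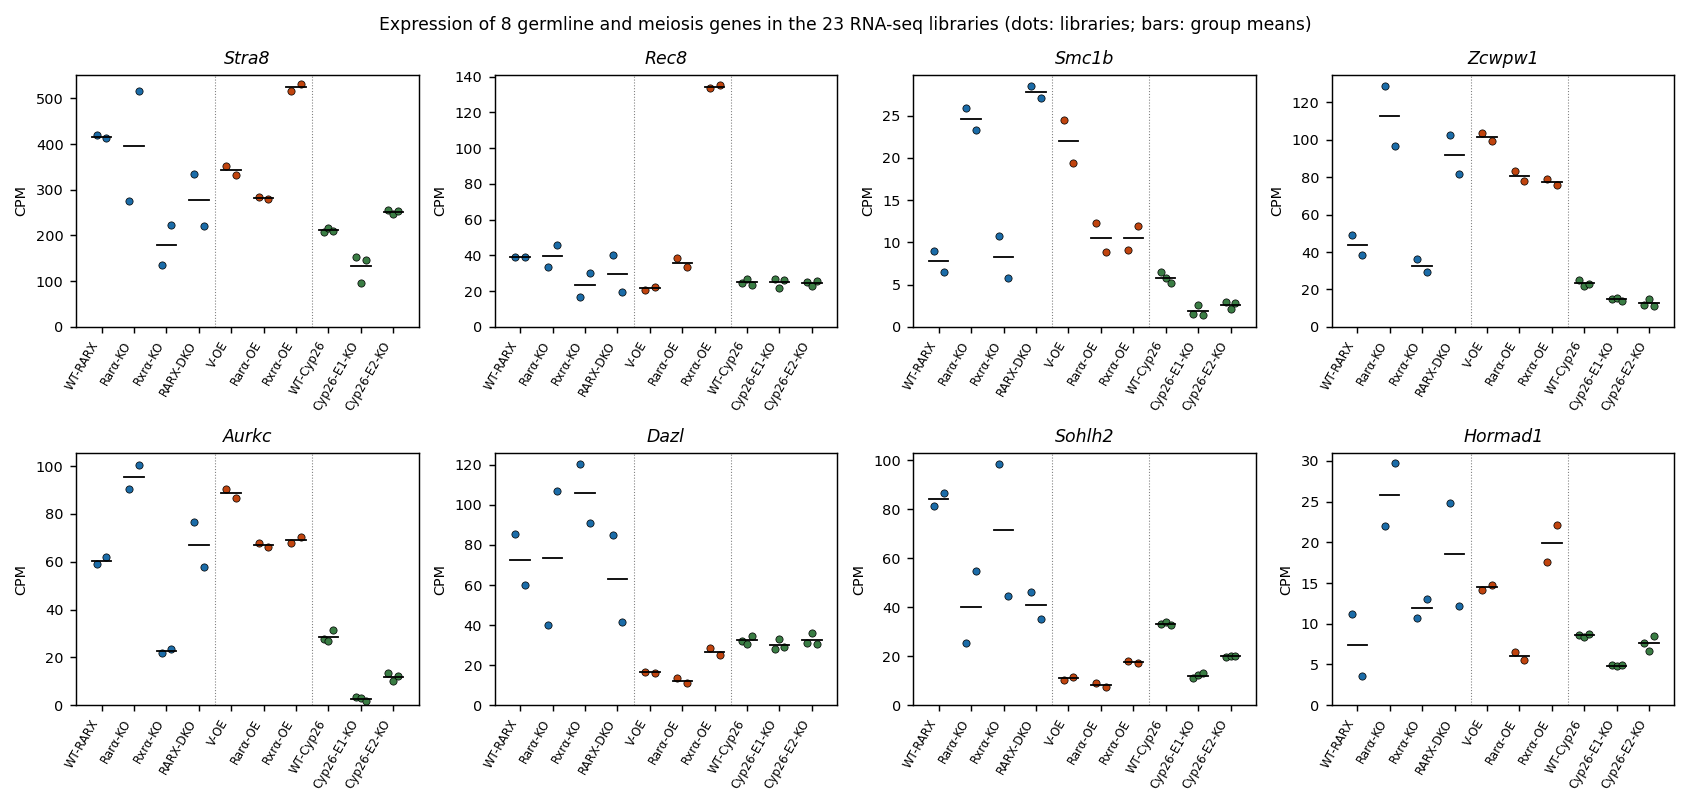
Level of 8 of the genes in CPM (linear axes from 0) in each of the 23 libraries, by group, with dots for libraries and bars for group means; dotted lines separate the 3 count tables. Stra8 lies between 517 and 530 CPM in Rxrα-OE and at 283 CPM or below in Rarα-OE, and Aurkc lies at 3.45 CPM or below in Cyp26-E1-KO.

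Few of the genes were called in the receptor knockouts against wild type: 3 were higher in Rarα-KO, the same 3 were higher in RARX-DKO, and 1 was lower in Rxrα-KO. In Rarα-KO, 3 of the 38 tested genes rose and none fell (of all 16445 tested genes, 0.645% were called, 0.389% higher and 0.255% lower). The median log2 fold change of the 38 was 0.54, with 31 above 0, while that over all genes was 0 to 2 decimals. Smc1b, the meiotic form of the SMC1 cohesin subunit, was 9.03 and 6.53 CPM in WT-RARX and 25.9 and 23.4 in Rarα-KO, a 3.17-fold rise (log2 fold change 1.67 ± 0.28, adjusted p = 0.022). Zcwpw1, a reader of the histone marks left by PRDM9 at recombination hotspots, was 49.0 and 38.5 CPM in WT-RARX and 129 and 96.9 in Rarα-KO (2.59-fold, 1.37 ± 0.19, adjusted p = 0.00963). Piwil2, a PIWI protein that binds piRNAs, was 37.3 and 38.9 CPM in WT-RARX and 63.7 and 76.4 in Rarα-KO (1.84-fold, 0.88 ± 0.17, adjusted p = 0.0295). The groups did not overlap for any of these genes. They were separate for 27 of the 38 tested genes, called or not, and no such share was computed over all genes. All 3 calls rest on few libraries: 0 remained without WT-RARX replicate 1, WT-RARX replicate 2 or Rarα-KO replicate 1, and 1 without Rarα-KO replicate 2. Fewer of all genes were also called when 1 library was left out. Other settings called more of the 38, all of them higher: 6 with DESeq2, 10 without the low-count filter and 10 when these groups alone were fitted. Over all genes, 258, 551 and 588 were called in these settings, against 106 as reported. The 5 primitive endoderm markers summed to 33.9 to 39.9 CPM in Rarα-KO against 84.4 to 87.7 in WT-RARX, and the 5 pluripotency markers to 3476 to 4286 against 2751 to 2808. Their part in the result was not tested.

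In RARX-DKO, against the same wild-type libraries, the 3 genes rose and none was called lower (2.24% of all genes called, 1.05% higher and 1.19% lower). Smc1b was 28.5 and 27.1 CPM (3.58-fold higher, log2 fold change 1.84 ± 0.28, adjusted p = 0.00457). Zcwpw1 was 102 and 81.6 CPM (2.11-fold, adjusted p = 0.0113) and Piwil2 was 75.7 and 59.8 CPM (1.78-fold, adjusted p = 0.0205). The median of the 38 genes was 0.40, with 27 above 0. The number called was 1 without WT-RARX replicate 1, 0 without WT-RARX replicate 2, 1 without RARX-DKO replicate 1 and 6 without RARX-DKO replicate 2, and 5 with DESeq2 and 8 without the low-count filter, all higher. Over all genes, 574 were called with DESeq2 and 981 without the filter, against 368 as reported. Primitive endoderm markers summed to 22.6 to 24.5 CPM in RARX-DKO and pluripotency markers to 4203 to 4234, and their part was not tested.

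Rxrα-KO had 1 call, a fall of Aurkc (2.47% of all genes called, 1.28% higher and 1.20% lower). Aurkc was 59.0 and 61.9 CPM in WT-RARX and 21.7 and 23.5 in Rxrα-KO, without overlap (2.67-fold lower, log2 fold change -1.42 ± 0.17, adjusted p = 0.0012), and this call held without any 1 library. Without the low-count filter, or when these groups alone were fitted, 3 genes were called, all lower. Over all genes, 1084 and 586 were called in these settings, against 407 as reported. The median of the 38 genes was -0.19, with 25 below 0. Here primitive endoderm markers summed to 133 to 135 CPM, above the wild type, and pluripotency markers to 3448 to 3693, and their part was not tested.

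Compared directly, Rxrα-KO lay below Rarα-KO in 9 genes and above it in none (5.38% of all genes called, 2.19% higher and 3.19% lower). The 9 covered every functional group except the germ cell regulators: the cohesins Smc1b and Stag3, Syce1 of the central element, Zcwpw1 and the meiotic recombinase Dmc1, the piRNA genes Piwil2 and Mov10l1 (a helicase), and the testis genes Aurkc and Tex101. Aurkc was 90.5 and 101 CPM in Rarα-KO, 4.22-fold above Rxrα-KO (log2 fold change -2.08 ± 0.17, adjusted p = 3.72e-05). Zcwpw1 was 36.4 and 29.1 CPM in Rxrα-KO, 3.45-fold lower than in Rarα-KO (adjusted p = 0.000461), and Smc1b was 10.8 and 5.84 CPM, 2.96-fold lower (adjusted p = 0.00836). The other differences ran from 1.99-fold lower for Stag3 to 4.32-fold lower for Tex101, which encodes a germ cell surface protein. Aurkc, Piwil2 and Zcwpw1 kept the call without any 1 library, and the number called was 3 without Rarα-KO replicate 2 and 5 without Rxrα-KO replicate 2, and 15 without the low-count filter, all lower. Over all genes, 1840 were called without the filter, against 885 as reported. Primitive endoderm markers, 5 of 5 called higher in Rxrα-KO than in Rarα-KO, moved the opposite way to the germline genes, and their part was not tested.

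RARX-DKO lay above Rxrα-KO in 7 genes and below it in none (3.50% of all genes called, 2.01% higher and 1.48% lower). They were Smc1b (3.34-fold), Aurkc (2.97-fold), Zcwpw1 (2.81-fold), Piwil2 (2.25-fold), Mov10l1 (2.18-fold), Syce1 (2.15-fold) and Stag3 (1.75-fold), with edgeR adjusted p from 0.000542 for Aurkc to 0.0324 for Stag3. Aurkc was 76.4 and 57.6 CPM in RARX-DKO, so both libraries lay above the Rxrα-KO libraries and on either side of the wild type. The number called was 4 without Rxrα-KO replicate 2, 4 without RARX-DKO replicate 1, and 2 when these groups alone were fitted. Over all genes, 30 were called when these groups alone were fitted, against 575 as reported. Primitive endoderm markers, 5 of 5 called lower in RARX-DKO than in Rxrα-KO, moved the opposite way to the germline genes, and their part was not tested. Between RARX-DKO and Rarα-KO, no gene of the 40 was called by edgeR or by DESeq2 (edgeR called 0.0122% of all genes, 0.00% higher and 0.0122% lower). Rarα-KO replicate 2 and RARX-DKO replicate 1 are the libraries that differed less than any replicate pair, although the labels place them in different groups, and whether they share a source was not tested. Rxra was 42.2 and 48.6 CPM in the Rarα-KO libraries and 13.6 and 27.6 CPM in the RARX-DKO libraries, without overlap. Without either library, 0 of the 40 genes were called between the 2 groups. The effect in RARX-DKO departed from the sum of the single knockouts for none of the 38 by either tool (edgeR called 0.00% of all genes). All these comparisons share libraries with one another.

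**Figure D2:**
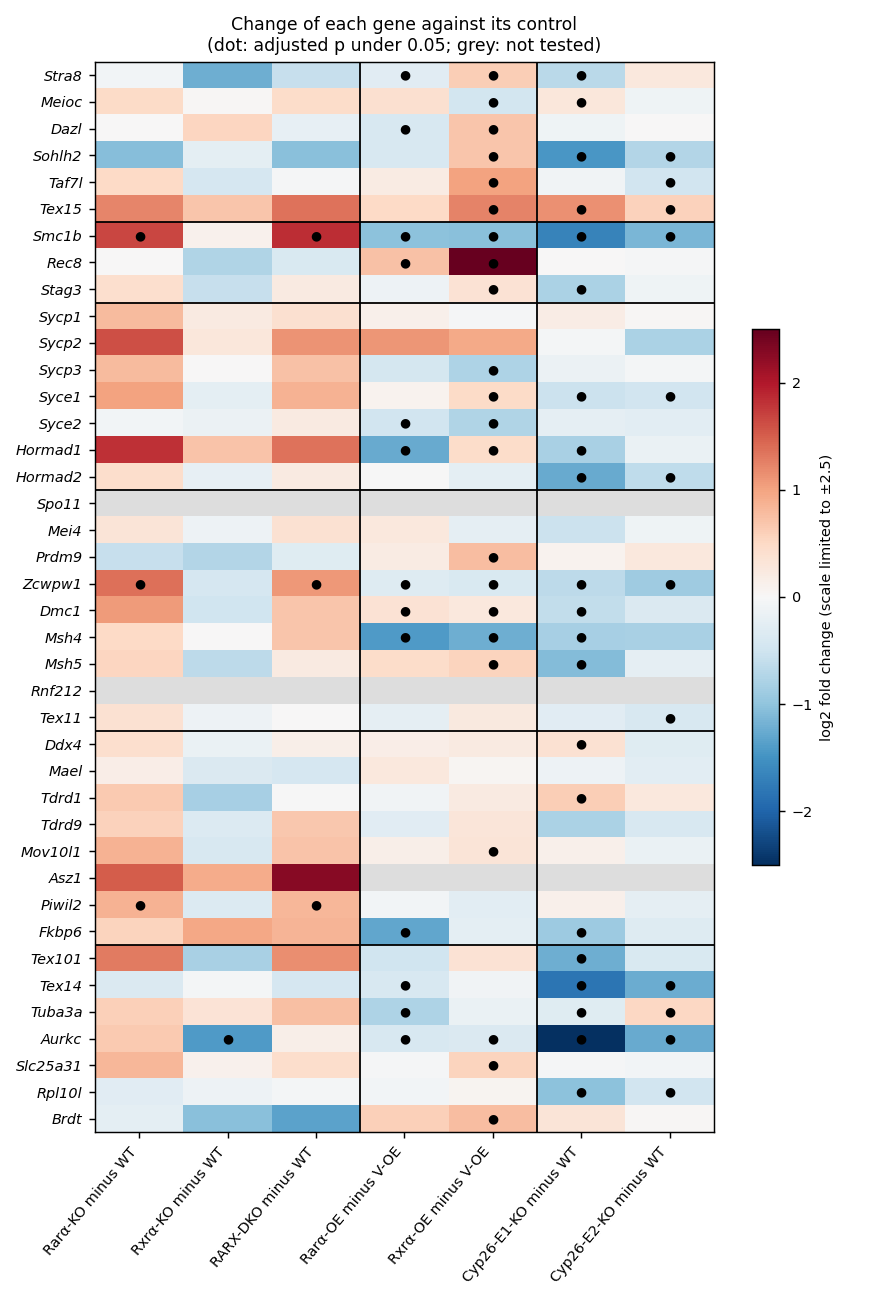
Log2 fold change of each of the 40 genes (rows, in functional groups) against the control of its table (columns), with red for higher, blue for lower, a dot for an edgeR adjusted p under 0.05 and grey for not tested; the colour scale stops at ±2.5. Smc1b and Zcwpw1 are red with a dot in Rarα-KO and RARX-DKO and blue with a dot in the overexpression and enhancer columns.

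With RARα overexpressed, more of the genes fell than rose. In Rarα-OE, 2 of 37 tested genes rose and 11 fell against V-OE (28.6% of all 16914 tested genes were called, 14.7% higher and 13.9% lower), and the median log2 fold change was -0.07. With library totals alone as the scaling, 5 rose and 10 fell. Among regulators, Stra8 fell (above), as did Dazl, the germ cell RNA-binding protein, from 16.7 and 16.1 to 13.6 and 11.0 CPM (log2 fold change -0.40 ± 0.15, adjusted p = 0.0381). The cohesins split. Smc1b fell from 24.5 and 19.4 to 12.3 and 8.84 CPM (2.05-fold, adjusted p = 2.01e-06), whereas Rec8, the meiotic kleisin subunit and like Stra8 an RA-induced gene in germ cells, rose from 20.9 and 22.3 to 38.4 and 33.4 CPM (1.67-fold, adjusted p = 2.24e-08).

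Of the axis and synaptonemal complex genes, Hormad1, a HORMA-domain protein of unsynapsed axes, fell from 14.1 and 14.8 to 6.53 and 5.51 CPM in Rarα-OE (2.38-fold, adjusted p = 2.14e-07) and Syce2 fell 1.39-fold. Msh4, a crossover MutS protein, fell 2.66-fold from 4.47 and 3.37 to 1.71 and 1.15 CPM (adjusted p = 0.00372), Zcwpw1 fell 1.25-fold, and Dmc1 rose 1.28-fold. Fkbp6, a piRNA pathway cochaperone, fell from 23.6 and 17.4 to 9.85 and 6.54 CPM (2.45-fold, adjusted p = 4.32e-08). In the testis group Tuba3a fell 1.71-fold, Tex14, of the germ cell intercellular bridge, 1.33-fold, and Aurkc 1.32-fold. The groups did not overlap for any of the 13 genes called. They were separate for 25 of the 37 tested genes, called or not, and no such share was computed over all genes. The calls of Dazl, Dmc1, Msh4 and Tex14 were lost without at least 1 library and with DESeq2. Pluripotency markers summed to 3540 to 3606 CPM in Rarα-OE against 4824 to 5031 in V-OE, and primitive endoderm markers to 219 to 225 against 36.5 to 38.0. The 6 markers of 2-cell-like cells summed to 235 to 249.6 CPM against 357 to 375, with 3 of 5 tested called lower. Their part was not tested.

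In Rxrα-OE the balance was the other way, with 15 genes higher and 7 lower than in V-OE and a median of 0.23 (60.2% of all genes called, 30.9% higher and 29.3% lower). The 22 called of 37, 59.5%, is close to the share over all genes. DESeq2 called 8 higher and 5 lower (7410 of all genes called, against 10178 with edgeR). Of the 6 regulators of germ cells and meiotic entry, 5 rose: Stra8, Dazl, Sohlh2, Taf7l and Tex15. Taf7l, a germ cell TFIID subunit, went from 13.6 and 17.6 to 32.4 and 30.9 CPM (2.01-fold, adjusted p = 9.54e-10), although tested genes within 10 Mb had a median of 0.25. Tex15, a germ cell gene of transposon silencing, went from 4.11 and 7.44 to 14.9 and 12.8 CPM (2.35-fold, adjusted p = 6.4e-07). Dazl rose to 28.7 and 24.9 CPM (1.63-fold, adjusted p = 1.13e-05), and Sohlh2 rose from 10.4 and 11.6 to 18.2 and 17.4 CPM (1.61-fold, adjusted p = 0.000243). Meioc, a partner of the RNA helicase YTHDC2, fell 1.38-fold (adjusted p = 0.0214). Of 10 regulators of the same kind outside the 40, 2 rose and 4 fell, with a median of -0.07, a count near the 60.2% called over all genes.

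Rec8 had the greatest rise of the 37 genes in Rxrα-OE. It was 134 and 135 CPM there against 20.9 and 22.3 in V-OE, with no overlap (6.21-fold, log2 fold change 2.63 ± 0.08, adjusted p = 1.35e-33). Its partner cohesin Stag3 rose 1.28-fold, from 114 and 114 to 141 and 150 CPM. Smc1b fell in Rxrα-OE to 9.14 and 11.9 CPM (2.05-fold, adjusted p = 3.04e-07). Of the axis and synaptonemal complex genes Hormad1 (1.38-fold) and Syce1 (1.39-fold) rose, while Sycp3, a core of the axis, fell 1.72-fold and Syce2 fell 1.68-fold. Tested genes within 10 Mb of Syce2 had a median of -0.24. In recombination, Prdm9, the methyltransferase that marks hotspots, rose 1.70-fold, Msh5, the partner of MSH4, 1.47-fold and Dmc1 1.21-fold, while Msh4 fell 2.34-fold and Zcwpw1 1.31-fold. Mov10l1 (1.25-fold), the ADP/ATP carrier Slc25a31 (1.47-fold) and the testis bromodomain gene Brdt (1.71-fold) rose, and Aurkc fell 1.28-fold. Of the 22 calls, 14 held without any 1 library. Those of Dmc1, Hormad1, Meioc, Mov10l1, Msh4, Msh5, Prdm9 and Slc25a31 did not. Pluripotency markers summed to 1166 to 1199 CPM in Rxrα-OE and primitive endoderm markers to 244 to 249.98 CPM. Of 5 tested markers of 2-cell-like cells, 4 were called higher and 1 lower, while the summed level of the 6 on the list went from 357 to 375 CPM in V-OE to 125 to 127 CPM. Of 3 tested Sertoli markers, 2 were called higher. The part of these markers was not tested.

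The 2 overexpression lines differed directly in 17 of 37 genes, 15 higher and 2 lower in Rxrα-OE (47.2% of all genes called, 23.8% higher and 23.4% lower), a share close to that over all genes. DESeq2 called 9 higher and 1 lower (5008 of all genes called, against 7979 with edgeR). Rec8 (3.72-fold) and Hormad1 (3.29-fold, with 17.6 and 22.1 CPM in Rxrα-OE) differed most, followed by Dazl (2.15-fold), Sohlh2 (2.11-fold), Fkbp6 (2.06-fold) and Stra8 (1.86-fold). Tex101 (1.83-fold), Taf7l (1.73-fold), Tex15 (1.67-fold), Tuba3a (1.52-fold), Slc25a31 (1.49-fold), Prdm9 (1.47-fold), Stag3 (1.39-fold), Syce1 (1.30-fold) and Tex14 (1.25-fold) were also higher in Rxrα-OE. Meioc was 1.82-fold and Syce2 1.22-fold lower. Smc1b, Zcwpw1, Aurkc, Dmc1 and Msh4, which were called in each line against V-OE, were not called between the lines. In the same comparison 5 of 5 pluripotency markers were called lower, and of 5 tested markers of 2-cell-like cells 4 were called higher and 1 lower. Their part was not tested.

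**Figure D3:**
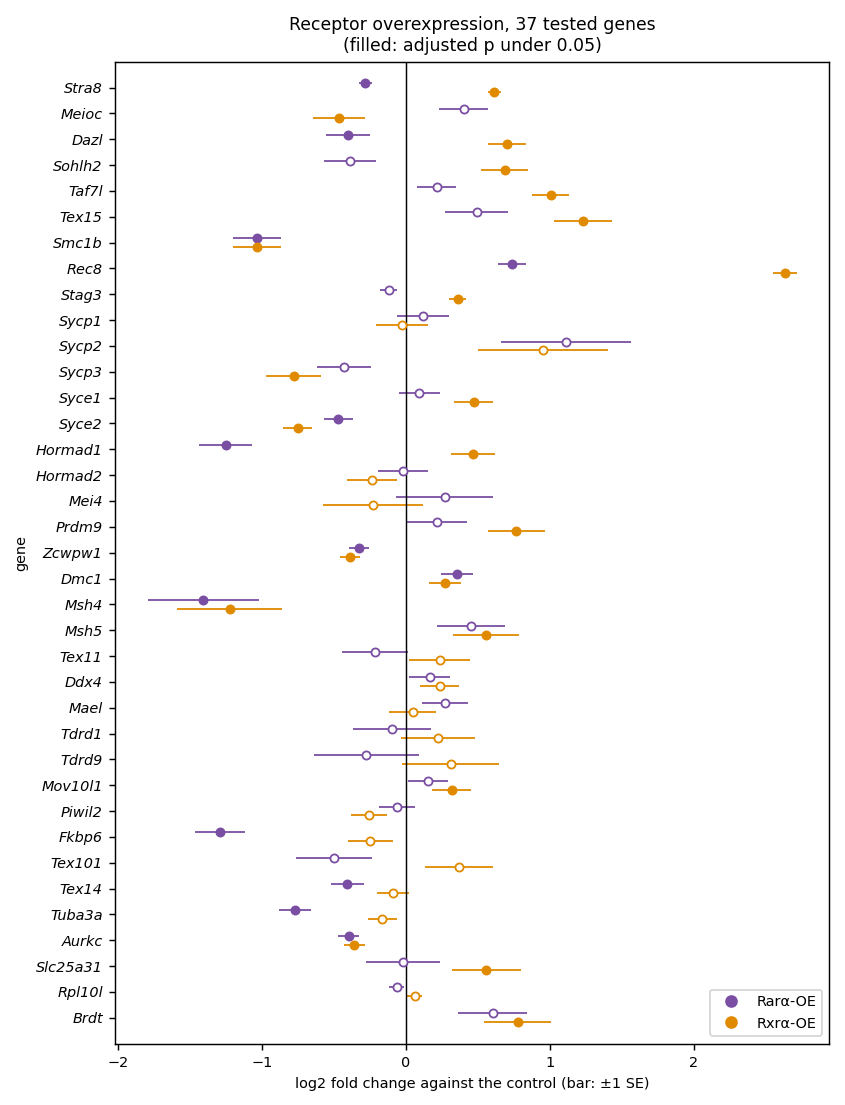
Log2 fold change against V-OE (horizontal axis, bars ±1 SE) of the 37 tested genes in Rarα-OE (purple) and Rxrα-OE (orange), with filled points for an edgeR adjusted p under 0.05. Rec8 lies at 0.74 in Rarα-OE and 2.63 in Rxrα-OE, and Stra8 and Dazl lie on opposite sides of 0.

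Deletion of the Cyp26-E1 enhancer went with lower levels of many of the genes. In Cyp26-E1-KO, 17 of 37 tested genes fell and 4 rose against WT-Cyp26 (25.3% of all 18768 tested genes called, 13.1% higher and 12.1% lower), with a median log2 fold change of -0.31 against -0.01 over all genes. Aurkc was 27.8, 26.8 and 31.4 CPM in WT-Cyp26 and 3.45, 2.86 and 1.90 in Cyp26-E1-KO, 10.4-fold lower (log2 fold change -3.38 ± 0.18, adjusted p = 2.71e-08). Tex14 fell from 42.9, 45.0 and 46.8 to 11.5, 15.2 and 11.4 CPM (3.53-fold, adjusted p = 9.41e-08). Neither gene's groups overlapped. Rpl10l fell 2.03-fold from 165, 164 and 173 to 92.1, 65.1 and 89.9 CPM, and Tex101 2.33-fold from 2.40, 1.90 and 2.04 to 0.976, 0.883 and 0.845 CPM. Tuba3a fell 1.24-fold.

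All the functional groups held falls in Cyp26-E1-KO. Of the cohesins, Smc1b fell from 6.48, 5.79 and 5.24 to 1.53, 2.54 and 1.44 CPM (3.18-fold, adjusted p = 0.000133) and Stag3 from 78.4, 78.1 and 75.6 to 46.6, 41.5 and 45.2 CPM (1.74-fold, adjusted p = 2.46e-06). Rec8 stayed between 21.8 and 26.7 CPM, against 23.3 to 26.9 in WT-Cyp26, and was not called. Hormad2, a HORMA-domain protein like HORMAD1, fell 2.38-fold, Hormad1 1.76-fold and Syce1 1.46-fold. Of 7 recombination genes, 4 fell and none rose: Msh5 (2.12-fold), Msh4 (1.78-fold), Zcwpw1 (1.58-fold, from 25.3, 21.9 and 22.8 to 15.1, 15.4 and 13.8 CPM) and Dmc1 (1.54-fold). Sohlh2 fell from 32.9, 34.0 and 32.9 to 10.9, 12.1 and 13.2 CPM (2.75-fold, adjusted p = 1.7e-07), and Fkbp6 1.89-fold.

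The genes that rose in Cyp26-E1-KO were Tex15, from 8.69, 7.28 and 6.91 to 13.5, 22.6 and 14.4 CPM (log2 fold change 1.14 ± 0.18, adjusted p = 0.000317), the piRNA scaffold Tdrd1 (1.53-fold), the germ cell helicase Ddx4 (1.30-fold) and Meioc (1.21-fold). Of the 21 calls, 16 held without any 1 library, and those of Ddx4, Meioc, Msh4, Tdrd1 and Tuba3a did not. Without Cyp26-E1-KO replicate 2, which stood apart, 22 genes were called, 18 lower and 4 higher. Over all genes, 6217 were called in that fit, against 4741 as reported. Pluripotency markers summed to 1147 to 1507 CPM in Cyp26-E1-KO against 1640 to 1700 in WT-Cyp26, and primitive endoderm markers to 310 to 321 against 306 to 317. Among the 5 primitive endoderm markers, 2 were called lower and 0 higher, with a median log2 fold change of -0.12. Of 6 markers of 2-cell-like cells, 5 were called lower and 0 higher, with a median log2 fold change of -0.69 and a summed level of 316 to 339.6 CPM against 356 to 362. Their part was not tested.

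Cyp26-E2-KO had fewer calls, with 10 genes lower and 2 higher (17.5% of all genes called, 9.28% higher and 8.20% lower) and a median of -0.25. Aurkc was 13.5, 10.1 and 12.1 CPM (2.41-fold lower, log2 fold change -1.27 ± 0.16, adjusted p = 8.51e-05) and Tex14 was 19.1, 18.5 and 19.6 CPM (2.35-fold lower, adjusted p = 5.66e-06). Smc1b was 2.92, 2.13 and 2.84 CPM (2.22-fold lower, adjusted p = 0.00287), Zcwpw1 was 11.8, 14.7 and 11.3 CPM (1.86-fold lower, adjusted p = 0.000135), and Sohlh2 was 19.6, 20.2 and 19.9 CPM (1.67-fold lower, adjusted p = 8.84e-05). Each of these lay below all 3 wild-type libraries. Hormad2 (1.55-fold), Taf7l (1.40-fold), Syce1 (1.40-fold), Rpl10l (1.38-fold) and Tex11, an X-linked meiotic recombination gene (1.31-fold), also fell. Tex15 rose 1.49-fold to 11.1, 12.3 and 10.8 CPM, a call lost when any 1 of the 6 libraries was left out. Tuba3a rose 1.42-fold to 44.4, 43.0 and 48.1 CPM, with a median of 0.18 over tested genes within 10 Mb. The number called was 7 without WT-Cyp26 replicate 3 or Cyp26-E2-KO replicate 1, and 21 when these groups alone were fitted. Over all genes, 2099, 2174 and 5731 were called in these settings, against 3280 as reported. Pluripotency markers summed to 1271 to 1390 CPM and primitive endoderm markers to 370.4 to 376 CPM, and their part was not tested.

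Between the deletions, 9 genes were higher and 3 lower in Cyp26-E2-KO than in Cyp26-E1-KO (4.49% of all genes called, 2.02% higher and 2.46% lower). With library totals alone as the scaling, 9 were higher and 1 lower. Aurkc differed most (4.33-fold higher, adjusted p = 2.02e-05), followed by Stra8 (1.91-fold), Tuba3a (1.76-fold, with a median of 0.26 over tested genes within 10 Mb), Sohlh2 (1.65-fold), Stag3 (1.62-fold), Hormad1 (1.56-fold), Fkbp6 (1.51-fold), Tex14 (1.50-fold) and Rpl10l (1.46-fold). Ddx4 (log2 fold change -0.68), Meioc (1.30-fold) and Piwil2 (1.28-fold) were lower. Stag3 was 68.8, 76.7 and 71.0 CPM in Cyp26-E2-KO, so its Cyp26-E1-KO libraries were the lower of the 2 groups without overlap. The number called was 14 without Cyp26-E1-KO replicate 2, 7 without Cyp26-E2-KO replicate 1, 7 without Cyp26-E2-KO replicate 3 and 7 when these groups alone were fitted. Over all genes, 1852, 400, 310 and 339 were called in these settings, against 842 as reported. Of the markers, 2 of 5 for primitive endoderm, 1 of 6 for 2-cell-like cells and 1 of 5 for pluripotent cells were called higher, and their part was not tested.

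**Figure D4:**
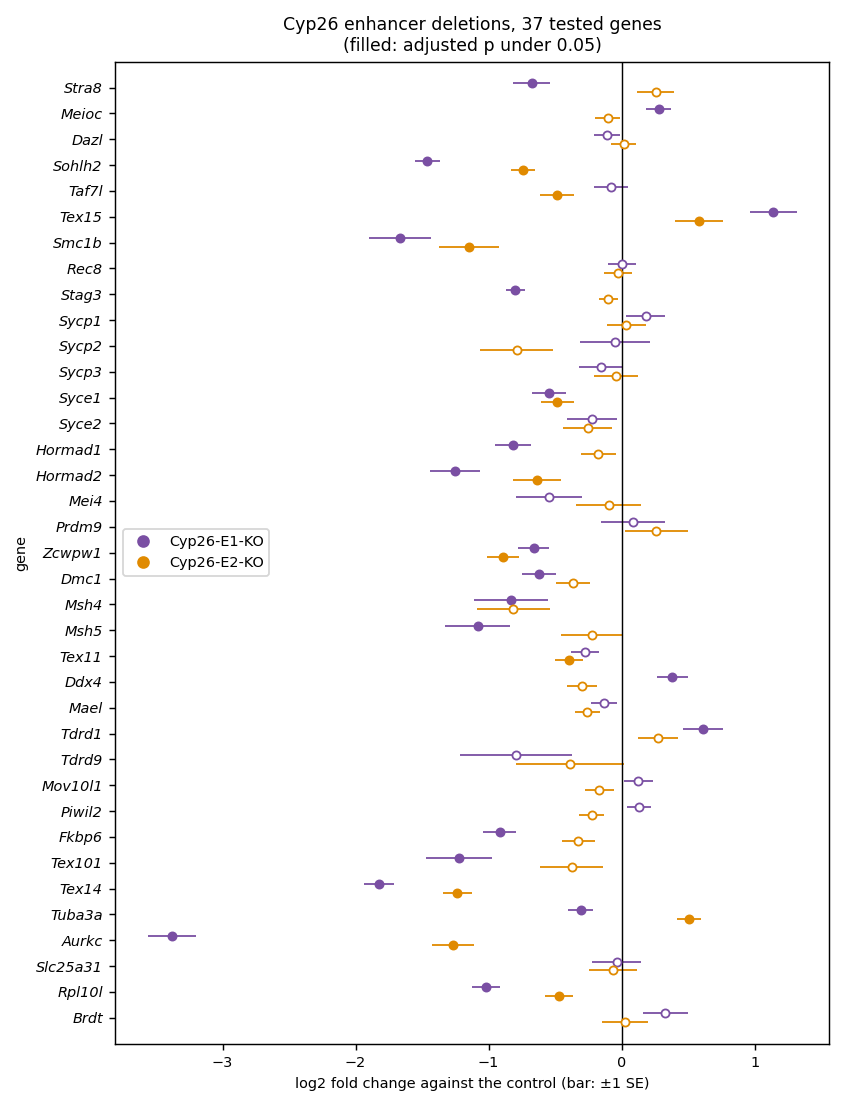
Log2 fold change against WT-Cyp26 (horizontal axis, bars ±1 SE) of the 37 tested genes in Cyp26-E1-KO (purple) and Cyp26-E2-KO (orange), with filled points for an edgeR adjusted p under 0.05. Aurkc lies at -3.38 and -1.27, and Stra8 lies at -0.68 in Cyp26-E1-KO and, not called, at 0.25 in Cyp26-E2-KO.

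Across the 7 comparisons with a control, which share control libraries within each table, Smc1b and Zcwpw1 were each called in 6. They were higher in the 2 comparisons of lines that lack RARα and lower in the 4 others. Each of those higher calls was lost without at least 1 library. Aurkc was called in 5 and lower in all of them. Tex14 and Msh4 were lower in each of the 3 comparisons that called them, and Tex15 was higher in its 3. Over the whole set, 9 genes were called in 3 comparisons, 11 in 2 and 9 in 1. No such tally was made over all genes, so these counts are a description only. The share of all genes called ran from 0.645% in Rarα-KO to 60.2% in Rxrα-OE. The 8 that were called in none were the untested Spo11 and Rnf212, Asz1, the synaptonemal complex genes Sycp1 and Sycp2, the piRNA genes Mael and Tdrd9, and Mei4, a partner of the break machinery.

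Genes of the same processes outside the 40 were read from lists. Of 23 other synaptonemal complex and recombination genes tested in the enhancer table, 7 fell and 2 rose in Cyp26-E1-KO (25.3% of all genes called), including Rec114 (log2 fold change -1.28 ± 0.21) and Mnd1 (-1.25 ± 0.15). In Cyp26-E2-KO 4 fell and 1 rose, with Mnd1 at -0.59 ± 0.15, a count near the 17.5% called over all genes. In Rxrα-OE, where 60.2% of all genes were called, 7 of 24 fell and 1 rose, with Ccnb1ip1, a crossover factor, at -1.90 ± 0.10. Of the other piRNA pathway genes, Gpat2, a mitochondrial acyltransferase-like protein, fell in Rxrα-KO (-1.06 ± 0.20), Cyp26-E1-KO (-1.40 ± 0.12) and Cyp26-E2-KO (-0.80 ± 0.11). It was the only call of 15 on this list in Rxrα-KO (2.47% of all genes called). Calls on the list were mixed in Cyp26-E1-KO, with 4 of 16 lower and 2 higher (25.3% of all genes called). The same held in Cyp26-E2-KO, with 3 of 16 lower and 2 higher (17.5%). In Rxrα-OE the piRNA list split, with 5 of 16 higher and 5 lower, a count near the 60.2% called over all genes. Among them were Tdrd7 (2.25 ± 0.25) and Piwil4 (1.35 ± 0.28) higher and Gtsf1 (-0.95 ± 0.29) lower. Of 17 primordial germ cell and naive state genes, 11 fell and 1 rose in Rxrα-OE, beside 29.3% of all genes lower and 30.9% higher. Prdm14, a primordial germ cell regulator, was at -4.02 ± 0.20. This list mixes the 2 kinds of gene, so its counts are not of primordial germ cell genes alone. Among the 7 markers of postmigratory primordial germ cells, 2 were called higher and 1 lower in Rxrα-OE. Those markers summed to 115 to 120 CPM there, against 69.7 to 71.7 in V-OE. A list of 28 genes held repressors of germline genes together with DNA methylation genes, among them Tet1 and Tet2, so its counts are not of repressors alone. Of the 28, 1 rose in Rarα-KO, 3 in Rxrα-KO and 2 in RARX-DKO, with none called lower (0.645%, 2.47% and 2.24% of all genes called). Tet1, a 5-methylcytosine dioxygenase on that list, was among them each time (0.82 ± 0.15, 1.32 ± 0.15 and 1.09 ± 0.15) and was the only call in Rarα-KO. In Rxrα-OE 18 of the 28 fell and 4 rose, beside 29.3% of all genes lower and 30.9% higher. Among those that fell were Tet1 at -2.28 ± 0.06, Tet2 at -1.35 ± 0.05 and Dnmt3l, a cofactor of DNA methylation, at -1.44 ± 0.04. The RA turnover and receptor genes fell in 7 of 18 in Rxrα-KO (1.20% of all genes lower) and rose in 15 of 18 in Rxrα-OE (30.9% of all genes higher), where 1 fell.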

How the data were processed

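RNA-seq gene counts of 23 libraries were analysed. The series also holds 4C-seq and H3K27Ac ChIP-seq, not used here. The deposited values are raw counts per gene. The submitters' processing notes name the mm10 build and, without roles, HISAT2 2.1.0, HTSeq 0.9.1 and DESeq2 1.18.1. Ensembl IDs of the enhancer table were matched to symbols for 52403 of 52636 genes. Enhancer column codes were matched to groups through codes of the 4C files, and the labels of the Cyp26-E2 RNA samples omit "KO", which the series text gives.

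Each table was fitted on its own with edgeR 4.0.16 (R 4.3.3; robust quasi-likelihood test, TMM scaling, filterByExpr with a minimum count of 10, all groups together), with Benjamini-Hochberg adjustment over all tested genes and a threshold of 0.05. SE is the absolute log2 fold change divided by the square root of F. CPM used TMM-scaled totals and, per kb, GENCODE vM21 exon lengths. On simulated counts with 200 changed genes, the test recovered 45% of 2-fold and 94% of 4-fold changes for Rarα-KO minus WT (16153 genes). The shares were 79% and 98% for Rarα-OE minus V-OE (16478 genes), and 61% and 81% for Cyp26-E1-KO minus WT (18308 genes). Unchanged genes called numbered 23, 10 and 7. For Rarα-KO minus WT they made up a larger share of the calls than the threshold of 0.05. The simulated counts used the fitted spread of each gene and held no library that stood apart, unlike Cyp26-E1-KO replicate 2.

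Alternatives were DESeq2 1.42.0, library totals without TMM, no filter, only the groups compared, a replicate block and leaving out each library. The replicates are called biological by the series text. Stra8 and all called members were named (up to 12 by size per comparison by rule; the rest were added after their values were seen), with the highest 5 and lowest 3 by level, untested members, up to 3 called genes per list, and Rara, Rxra and Cyp26a1 as checks. A listed gene that met this rule is not reported here. The members and lists were chosen with earlier results of these data known.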

Additional observations from a re-analysis of the deposited data

How the results depend on the processing

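The 120 single-gene differences called kept their direction under every alternative, and none reversed. DESeq2 lost 20 of these calls, fitting only the compared groups 14, omitting the low-count filter 7, and library totals without TMM 6. The counts of called genes that moved by over 1.5 times, against the reported 3, 1, 3, 9, 7, 22, 17, 12 and 12, were as follows. In Rarα-KO minus WT the count was 6 with DESeq2, 10 without the filter and 10 with only the groups compared. In Rxrα-KO minus WT it was 3 without the filter and 3 with only the groups compared. In RARX-DKO minus WT it was 5 with DESeq2 and 8 without the filter. For Rxrα-KO minus Rarα-KO it was 15 without the filter, and for RARX-DKO minus Rxrα-KO 2 with only the groups compared. DESeq2 gave 13 for Rxrα-OE minus V-OE and 10 for Rxrα-OE minus Rarα-OE. With only the groups compared, Cyp26-E2-KO minus WT gave 21 and Cyp26-E2-KO minus Cyp26-E1-KO 7. In each of these settings the number of all genes called moved in the same direction. Leaving out 1 library gave 0 to 1 in Rarα-KO minus WT, 0 to 6 in RARX-DKO minus WT, 3 to 7 in Rxrα-KO minus Rarα-KO, 4 to 9 in RARX-DKO minus Rxrα-KO, 7 to 12 in Cyp26-E2-KO minus WT and 7 to 14 in Cyp26-E2-KO minus Cyp26-E1-KO. It gave 11 to 12 in Rarα-OE minus V-OE, 17 to 20 in Rxrα-OE minus V-OE, 14 to 15 in Rxrα-OE minus Rarα-OE and 17 to 22 in Cyp26-E1-KO minus WT. The cause of these changes was not tested.

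Deviations of same-numbered libraries from their group means correlated by -0.21 to 0.12. Groups of 2 libraries give only 1 such value per comparison, so it cannot settle whether the replicate numbers pair the samples. A replicate block gave 2 called genes in Rarα-KO minus WT, 1 in Rxrα-KO minus WT, 3 in RARX-DKO minus WT, 8 in Rxrα-KO minus Rarα-KO, 0 in RARX-DKO minus Rarα-KO, 8 in RARX-DKO minus Rxrα-KO and 0 for the departure from the sum. It gave 13 in Rarα-OE minus V-OE, 21 in Rxrα-OE minus V-OE, 16 in Rxrα-OE minus Rarα-OE, 20 in Cyp26-E1-KO minus WT, 12 in Cyp26-E2-KO minus WT and 11 in Cyp26-E2-KO minus Cyp26-E1-KO. Pairing RARX-DKO and Rarα-KO libraries with crossed numbers, chosen after seeing the data, gave 0 of the 40 genes and 9 of all genes.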
